A study of Drosophila melanogaster with 12 samples.

Results

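Orthodenticle (oc, also called otd), engrailed (en) and invected (inv) are 3 homeobox genes that act in the dorsal head of Drosophila melanogaster, where the ocelli and the head vertex form. They were picked out of the table by gene symbol, with earlier results of these data known, and are 3 of 10893 genes measured by RNA sequencing of poly(A) RNA. The eye-antennal imaginal disc, the larval epithelium from which the eye, the antenna and most of the adult head cuticle form, was sampled from larvae of the strain labelled w[11-18]. The libraries were discs with attached cuticular mouthparts at 72 h after egg laying, whole discs at 72, 96 and 120 h and at white puparium formation (WPP), separated eye parts and antenna parts at 120 and 96 h, and whole larvae at 72, 96 and 120 h. All 12 groups shared the strain, carried no other allele or agent in the labels, and held 1 library each. The labels do not say how many animals were pooled, of which sex, or where the cut between eye and antenna part was made.

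The oc product is a paired-type homeodomain factor that acts in the embryonic head, in the primordia of the ocelli and medial head capsule, and later in photoreceptors. The en and inv products are closely related homeodomain factors, encoded side by side, that mark posterior compartments, where en maintains expression of the signal Hedgehog and represses its effector gene ci. In the head primordium of the disc, oc is required for the ocellar and vertex fields, and en is expressed there downstream of oc and Hedgehog signalling.

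Levels are given as FPKM, a fragment count scaled by transcript length and mapped total, so that genes can be set side by side within a library. The number of reads is not known from these values, so no counting error can be given. FPKM summed to between 939303 and 2210255 per library, and 8212 to 9664 genes reached 1 FPKM. The defining markers of the parts followed the labels: 6 eye genes (gl, eya, so, sens, ro and lz) summed to 391 and 466 FPKM in eye parts of 120 and 96 h, against 38.5 and 30.4 in antenna parts. The 4 antenna genes Dll, ss, disco and al summed to 27.5 and 19.8 FPKM in the eye parts, against 209 and 246 in the antenna parts.

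Expression of oc was higher in every library of disc tissue than in any whole larva. It stood at 26.2 FPKM in the disc with mouthparts at 72 h, and at 24.1, 26.4, 46.9 and 32.1 FPKM in whole discs at 72, 96 and 120 h and WPP. The eye part held 50.03 FPKM at 120 h and 27.2 at 96 h, and the antenna part 21.6 and 29.4 at the same ages. Whole larvae held 2.30, 1.73 and 5.27 FPKM at 72, 96 and 120 h. The lowest disc-tissue library was thus above the highest larva, and within disc tissue the highest library, the eye part at 120 h, was 2.32 times the lowest, the antenna part at 120 h. The gene ranked above 78.9% of all genes in the whole disc at 120 h and above 20.6% in the whole larva at 96 h.

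Expression of en was low in young discs and high in the antenna part. It stood at 5.63 FPKM in the disc with mouthparts at 72 h, and at 5.21, 13.7, 24.7 and 19.4 FPKM in whole discs at 72, 96 and 120 h and WPP. The eye part held 14.6 and 11.7 FPKM at 120 and 96 h, and the antenna part 27.4 and 29.4. Whole larvae held 2.41, 2.49 and 11.3 FPKM at 72, 96 and 120 h. In contrast to oc, the ranges of disc tissue and larva overlapped, because the larva at 120 h lay above both 72 h disc libraries.

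The third gene, inv, had an order of libraries close to that of en. It stood at 6.05 FPKM in the disc with mouthparts at 72 h, and at 6.67, 16.3, 21.3 and 21.6 FPKM in whole discs at 72, 96 and 120 h and WPP. The eye part held 9.15 and 7.42 FPKM at 120 and 96 h, and the antenna part 34.1 and 27.3. Whole larvae held 1.76, 3.01 and 8.90 FPKM at 72, 96 and 120 h. Both antenna libraries were above every other library for inv, as they were for en.

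**Figure D1:**
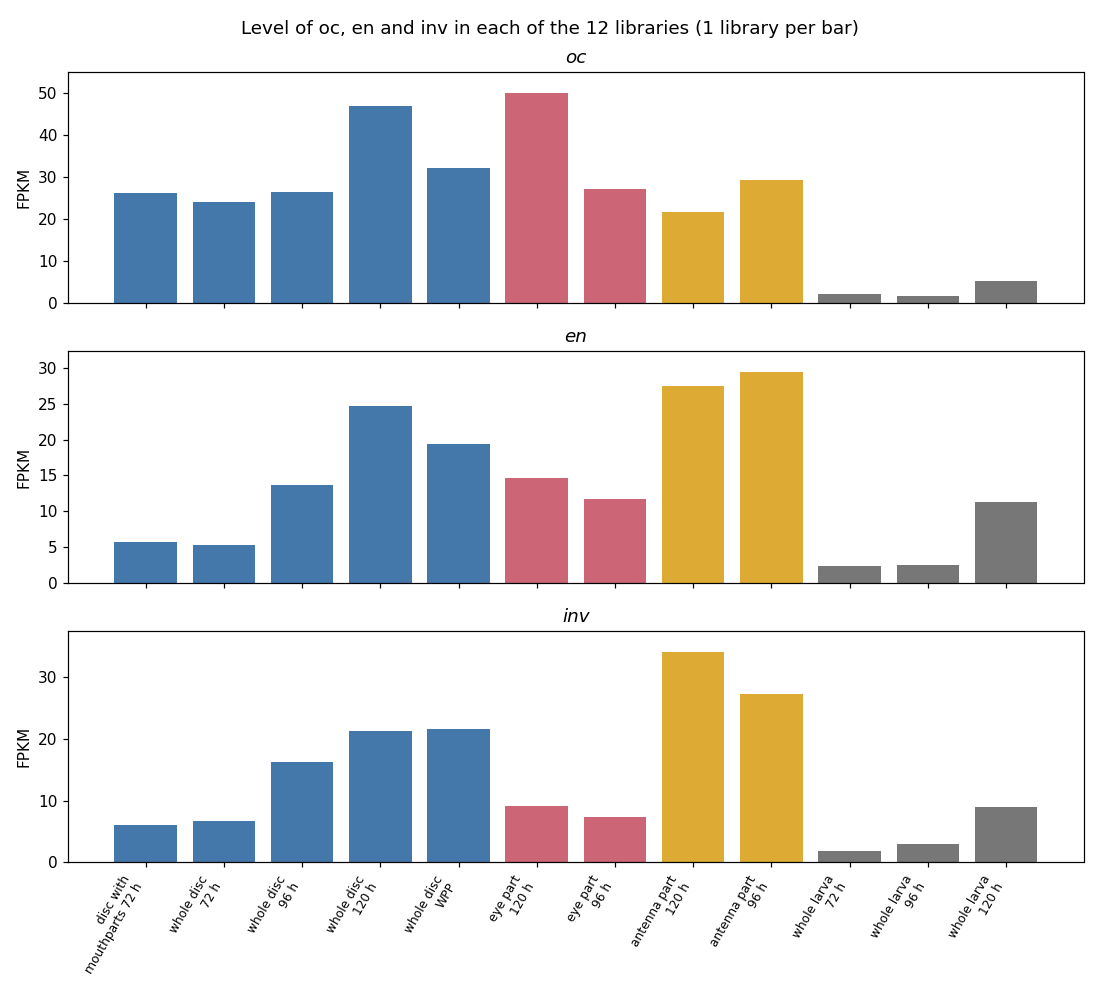
FPKM (vertical axes, each starting at 0) of oc, en and inv in the 12 libraries, 1 bar per library with no replicate error. Bars of oc are tall in all disc tissue and short in whole larvae, with the eye part at 120 h highest at 50.03 FPKM, while the antenna parts carry the tallest bars of en and inv.

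The distance between libraries of like tissue was described by setting each whole disc against a weighted mix of the parts of its age. The median absolute deviation of log2(FPKM + 1) was 0.23 at 120 h (7583 genes) and 0.14 at 96 h (7643 genes). At 120 h the whole disc exceeded this mix for all 3 genes, by 0.26 for oc, 0.32 for en and 0.16 for inv, and 44%, 35% and 62.9% of all genes deviated as far in size. At 96 h the deviations were -0.09 for oc, -0.41 for en and 0.11 for inv, with 14.8% of genes as far out as en. Taking 0.23 as the step, 7 of the 11 gaps between neighbours in the order of levels were smaller than that for oc, 7 of 11 for en and 4 of 11 for inv. For oc, the libraries from the WPP disc (32.1 FPKM) down to the antenna part at 120 h (21.6 FPKM) followed each other in steps smaller than this. At 120 h the eye part and the whole disc stood above them, separated by a gap of 0.53.

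Eye and antenna parts were compared to ask in which territory each selector gene was higher. Of the 3 genes, inv passed the test and was lower in the eye part. It held 9.15 and 7.42 FPKM in eye parts of 120 and 96 h, against 34.1 and 27.3 FPKM in antenna parts. The difference was -1.77 on the log2(FPKM + 1) scale (SE 0.15, limma adjusted p = 0.00845, 9081 genes tested). Its neighbour en held 14.6 and 11.7 FPKM in the eye part, against 27.4 and 29.4 FPKM in the antenna part. The eye libraries of en lay below its antenna libraries at both ages, but the difference of -1.06 missed the threshold (SE 0.25, limma adjusted p = 0.118). For oc the parts differed at 96 h by less than the step of 0.23, with 27.2 FPKM in the eye part against 29.4 in that of the antenna. At 120 h the eye part held 50.03 FPKM and the antenna part 21.6, and the fit over both ages gave 0.53 (SE 0.37, limma adjusted p = 0.678).

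Over all genes, 1.39% were called lower in the eye part. No group had a replicate, so the error term was what additive terms for tissue and age left over in the 6 libraries. It holds any true difference of an age change between tissues as well as technical spread, and the opposite changes of oc given below are part of it for that gene. With 1 library left out, the call of inv ended without the eye part at 96 h (-1.80) and without that at 120 h (-1.74). Each of these fits keeps 1 eye library, and nearly all other calls between the parts ended in them as well. With either whole disc left out, the difference of en was -1.06, the estimate of the parts alone. It passed without the disc at 120 h and missed without that at 96 h, so these are not separate checks. The difference of oc turned to -0.10 without the antenna part at 120 h.

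By a rule of size for single pairs of libraries, a change of at least 2-fold in FPKM + 1 and 5 FPKM or more in whichever library was higher, en and inv were lower in the eye part at 96 h (7.53% of genes with at least 5 FPKM in 1 of the libraries were). At 120 h inv was lower (4.98% of such genes) and oc was higher (7.33%). These pairs have no replicate check. The log2 differences of the eye part from the antenna part were -1.79 at 120 h and -1.75 at 96 h for inv, -0.86 and -1.25 for en, and 1.18 and -0.11 for oc. The values of inv were thus nearly alike at the 2 ages, and those of oc were not.

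Markers of other tissues also differed between the parts. The 5 muscle genes Mlc1, Act57B, up, Tm2 and Mlc2 summed to 24.1 and 454 FPKM in eye parts of 120 and 96 h, against 175 and 4197 in antenna parts. Limma called 3 of the 5 lower in the eye part (1.39% of all genes were). The 6 ring gland genes phtm, dib, sad, spok, sro and jhamt, of an endocrine organ near the brain, summed to 252 and 368 FPKM in the eye part, against 429 and 1330 in the antenna part. None of the 6 was called by limma (6 at an unadjusted p under 0.05, as were 1348 of all 9081 genes). None of the listed markers was at 0 in any library. In the antenna part inv held 34.1 FPKM at 120 h and 27.3 at 96 h, and en held 27.4 and 29.4. The part of muscle and ring gland cells in the levels of en and inv was not tested.

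Within a library, en and inv were close to each other. The ratio of en to inv in FPKM ran from 0.78 in the whole disc at 72 h to 1.60 in the eye part at 120 h, and en was the higher in 6 of 12 libraries. In the eye part the ratio was 1.60 at 120 h and 1.58 at 96 h, and in the antenna part 0.81 and 1.08. Both eye libraries thus had more en than inv, and the antenna libraries lay on either side of 1. The ratio of oc to en was 3.42 and 2.32 in eye parts of 120 and 96 h, against 0.79 and 1.00 in antenna parts. It was 4.62 in the whole disc at 72 h and 1.90 in that at 120 h. In whole larvae it was below 1 at all 3 ages, at 0.96, 0.70 and 0.47.

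**Figure D2:**
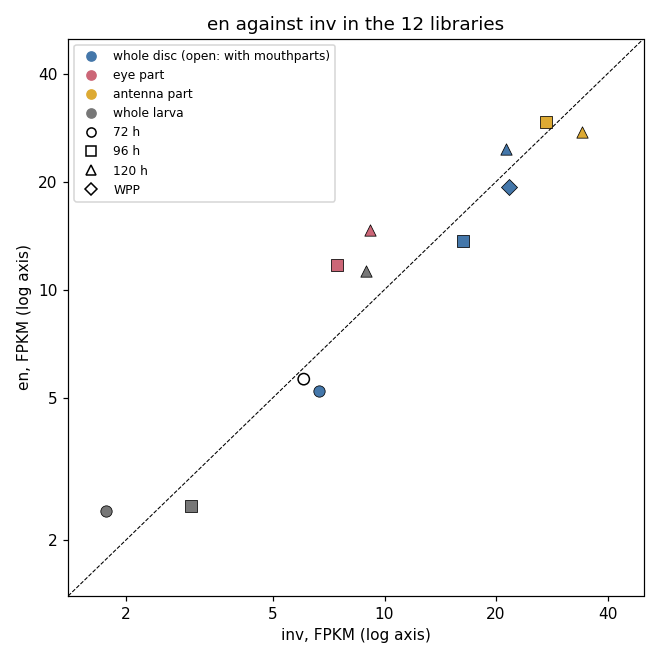
FPKM of en (vertical, log axis) against FPKM of inv (horizontal, log axis), 1 point per library, with colour for tissue, shape for age and a dashed line where both are equal. The points lie along the line over the whole range, and the 2 eye parts lie above it, at ratios of 1.60 and 1.58.

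The ages of 120 and 96 h were compared over disc tissue to ask what changed before pupariation. Limma called 0 of the 3 genes (2.11% of all 9081 genes), and inv alone had an unadjusted p under 0.05 (1655 of all genes did). The estimates were 0.41 for oc (SE 0.31, adjusted p = 0.557), 0.34 for en (SE 0.20, adjusted p = 0.459) and 0.31 for inv (SE 0.12, adjusted p = 0.264), all by limma. By tissue, oc held 50.03 FPKM at 120 h against 27.2 at 96 h in the eye part, and 46.9 against 26.4 in the whole disc. In the antenna part oc held 21.6 FPKM at 120 h against 29.4 at 96 h. The eye part and the whole disc were therefore higher at 120 h, and the antenna part was lower.

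The log2 differences of oc were 0.86 in the eye part, -0.43 in the antenna part and 0.81 in the whole disc. None reached the 2-fold rule, nor did any of en or inv (11.7% of genes passed it in the eye part, 14.4% in the antenna part and 11.0% in the whole disc). The change of oc in the eye part exceeded that in the antenna part by 1.28. A value at least as high was found for 6.23% of 9081 genes, whose median was -0.08, and with 1 library per tissue and age this difference was not tested. The same quantity was 0.39 for en and -0.04 for inv, with 20.3% and 54.0% of genes as far out in the same direction. In the fit, the age estimate for oc was 0.83 without the antenna part at 96 h or at 120 h. Leaving out either library takes the antenna part out of the age estimate, so both values are the same by design.

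Of the neuron and brain markers elav, nSyb, Syt1, brp, dpn, mira, ase, wor and nerfin-1, the sum was 212 FPKM in the eye part at 120 h against 114.9 at 96 h, and 42.2 against 38.8 in the antenna part. Of these 9 genes 8 were tested, and limma called 0 between the ages (2.11% of all genes were called). An unadjusted p under 0.05 was found for 1 of the 8 and for 1655 of all 9081 genes. Of the 5 muscle markers limma called 4 lower at 120 h (106 of all 9081 genes were), and Mlc2, at -4.89, was not called. Their sums were 24.1 FPKM against 454 at 96 h in the eye part and 175 against 4197 in the antenna part. The part of these cell types in the level of oc was not tested.

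In whole discs en and inv were low at 72 h and more than 2-fold higher at 96 h, while oc was nearly as high at 72 h as at 96 h. The levels at 72, 96 and 120 h and WPP were 5.21, 13.7, 24.7 and 19.4 FPKM for en. The disc at 96 h exceeded that at 72 h by 1.24 for en and by 1.17 for inv on the log2(FPKM + 1) scale, and both passed the rule of size (5.02% of genes passed it upwards). The value for oc was 0.13. With a pseudocount of 5 the values of en and inv were 0.87 each and no longer passed. The muscle markers summed to 1671 FPKM in the disc at 96 h and to 6138 in that at 72 h. The antenna markers summed to 118 FPKM at 96 h against 50.5 at 72 h, and the neuron and brain markers to 93.6 against 38.8. The part of these cell types in the differences was not tested. The disc at 120 h exceeded that at 96 h by 0.81 for oc, 0.81 for en and 0.36 for inv, and 0 of 3 passed (11.0% of genes did).

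The WPP disc differed from that at 120 h by -0.53 for oc, -0.34 for en and 0.02 for inv, and none passed (14.4% of genes did in either direction). The disc with mouthparts was set against the disc without them at 72 h. The muscle markers summed to 11208 FPKM in the disc with mouthparts and to 6138 in the disc without them. The differences were 0.12 for oc, 0.09 for en and -0.12 for inv, and none passed the rule (10.6% of genes did). All 3 genes thus lay closer together in this pair than the step of 0.23.

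Whole discs were compared with whole larvae at matched ages to ask how far each gene was concentrated in the disc. All 3 genes passed the test with higher values in discs, but 35.9% of 9993 genes did so, and the median gene was higher by 0.62. For oc, discs held 24.1, 26.4 and 46.9 FPKM at 72, 96 and 120 h, against 2.30, 1.73 and 5.27 in larvae. The difference was 3.06 (SE 0.33, limma adjusted p = 0.000227), which is 2.44 above the median gene, and the disc held 10.4, 15.2 and 8.89 times the FPKM of the larva at the 3 ages. For inv, discs held 6.67, 16.3 and 21.3 FPKM, against 1.76, 3.01 and 8.90 in larvae. The difference was 1.58 (SE 0.36, limma adjusted p = 0.00729), or 0.96 above the median gene.

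For en, discs held 5.21, 13.7 and 24.7 FPKM, against 2.41, 2.49 and 11.3 in larvae. The difference was 1.33 (SE 0.38, limma adjusted p = 0.0181), or 0.71 above the median gene. At 72 h 49.1% of genes were as far towards the disc as en, against 4.96% for oc. The call of en was lost under median-ratio scaling (0.71, limma adjusted p = 0.118) and under quantile normalisation (1.11, limma adjusted p = 0.0668). It also ended without the larva at 96 h (0.96, adjusted p = 0.227) or 120 h (1.47, adjusted p = 0.0613) and without the disc at 96 h (0.96, adjusted p = 0.260) or 120 h (1.47, adjusted p = 0.0672), all by limma. That of inv ended without the larva at 96 h (1.32, adjusted p = 0.107) or the disc at 96 h (1.32, adjusted p = 0.145). Leaving out the disc or the larva of an age gives the same estimate, because the library that stays has no partner, so these are not separate checks. In these bulk samples, fewer cells of a type and less RNA per cell cannot be told apart.

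By the rule of size, oc and inv were higher in the disc at 72 h (45.0% of genes passed upwards), and all 3 were at 96 h (51.7%) and at 120 h (29.5%). Under median-ratio scaling inv at 72 h (0.78) and en and inv at 120 h (0.63 and 0.74) no longer passed. The same 3 differences missed the rule with a pseudocount of 5 (0.79, 0.86 and 0.92). Over the ages of the larva itself, all 3 were higher at 120 h than at 96 h (25.1% of genes passed upwards). The log2 differences were 1.20 for oc, 1.82 for en and 1.30 for inv, against a median of 0.61 over genes with at least 5 FPKM. Those of oc and inv no longer passed with median-ratio scaling (0.80 and 0.83) or a pseudocount of 5 (0.61 and 0.80). Between larvae at 96 and 72 h the differences were -0.27 for oc, 0.04 for en and 0.54 for inv, and 0 of 3 passed (27.1% of genes did in either direction).

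**Figure D3:**
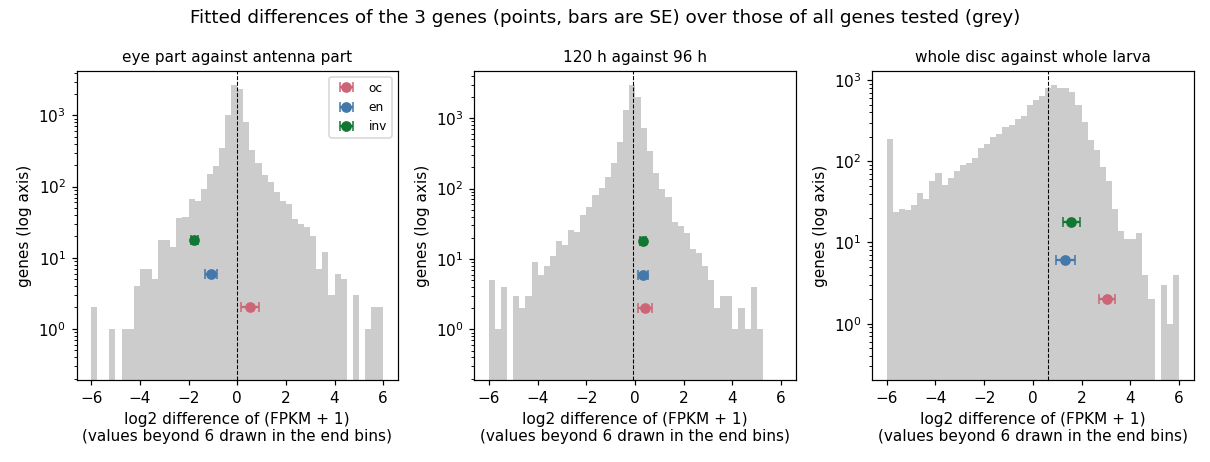
Difference of log2(FPKM + 1) (horizontal) for oc, en and inv, with SE bars, over the histogram of all genes tested (grey, vertical log axis, dashed line at the median, differences beyond 6 in the end bins), in the fits of eye part against antenna part, 120 h against 96 h, and whole disc against whole larva. The height of a point carries no value. The point of inv lies at -1.77 in the left panel and that of oc at 3.06 in the right panel, and all 3 lie between 0.31 and 0.41 in the middle one.

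The genes that act with the 3 selectors were then counted between the parts. In a list of 12 genes of the ocellar network, 11 were tested, and 4 were higher in eye parts with 0 lower (1.75% of all genes were called higher). They were the cofactor gene eya at 3.51 (SE 0.22, adjusted p = 0.00527), the homeobox gene so at 3.10 (adjusted p = 0.00447), and the Pax6 genes ey at 3.08 (adjusted p = 0.00417) and toy at 1.95 (adjusted p = 0.0152), all by limma. None of the listed Hedgehog pathway genes passed: hh, the ligand, had -0.37 (limma adjusted p = 0.411), the receptor gene ptc 0.26, the effector gene ci 0.35 and smo -0.09. The signal hh held 28.9 and 31.4 FPKM in eye parts of 120 and 96 h, against 42.3 and 36.2 in antenna parts. The values of N and Delta, genes of the Notch receptor and its ligand, were 0.09 and 0.15, and the list's median was 0.26, against -0.02 over all genes. One listed gene, wg, was not analysed here.

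Among 12 genes of head capsule patterning, 11 were tested, with 1 lower and 0 higher in eye parts (1.39% and 1.75% of all genes). It was Lim1, a LIM-homeobox gene, at -2.38 (SE 0.23, limma adjusted p = 0.0122). The Iroquois genes ara, caup and mirr had 0.64, 0.87 and 0.83, the GATA factor gene pnr 0.61 and the T-box gene bi 0.88, and none of these passed (9 of the 11 had an unadjusted p under 0.05). In a list of 6 head gap genes and relatives of them (ems, btd, tll, slp1, slp2 and Sp1), 2 were lower in the eye part (1.39% of all genes were). They were Sp1 at -3.12 (limma adjusted p = 0.00896) and btd at -2.25 (limma adjusted p = 0.0343), neighbouring zinc finger genes. The homeobox gene ems had -1.13, tll had 1.60 and the forkhead genes slp1 and slp2 had 0.66 and 0.48, and none of these passed. The level of tll was low, at 4.01 and 1.60 FPKM in eye parts of 120 and 96 h, against 0.27 and 0.12 in antenna parts. All 6 had an unadjusted p under 0.05. Between the parts 1348 of all 9081 genes had such a p.

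Of 8 cofactors and targets of Engrailed (exd, hth, gro, ci, ptc, dpp, hh and pho), limma called 0 between the parts. Over all genes, 1.75% were called higher and 1.39% lower in the eye part. An unadjusted p under 0.05 was found for 2 of them and for 1348 of all 9081 genes. The homeobox cofactor hth had -1.14 (limma adjusted p = 0.0699), with 252 and 149 FPKM in eye parts of 120 and 96 h, against 490 and 372 in antenna parts. Both eye libraries of hth were thus below both antenna libraries. The cofactor exd had -0.08 and the corepressor gene gro -0.17.

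Of 12 genes regulated by oc in photoreceptors or acting with it there, 8 were tested and the rhodopsin genes ninaE, Rh2, Rh3 and Rh4 were not analysed here. Limma called 0 of the 8, where 1.75% of all genes were called higher and 1.39% lower in the eye part. An unadjusted p under 0.05 was found for 2 of the 8 and for 1348 of all 9081 genes. Pph13, a homeobox gene of photoreceptors, held 1.93 and 0.30 FPKM in eye parts of 120 and 96 h, against 0.09 and 0.09 in antenna parts. The rhodopsin gene Rh6, expressed in the larval eye, held 10.6 FPKM in the disc with mouthparts at 72 h and 3.80 in the disc without them. In the parts Rh6 held 0.912 and 1.104 FPKM in eye parts of 120 and 96 h, against 4.18 and 3.61 in antenna parts. The eye libraries of Rh6 thus lay below its antenna libraries, but the difference of -1.29 did not pass (limma adjusted p = 0.112).

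In the list of 17 paired-type homeobox relatives of oc, 6 were tested, with 1 higher and 4 lower in eye parts (1.75% and 1.39% of all genes). The higher one was repo, the glial gene, at 1.99 (limma adjusted p = 0.0480). The lower ones were gsb-n at -2.84, al at -2.63, gsb at -2.49 and unc-4 at -2.32 (limma adjusted p from 0.00709 to 0.0398). Of 13 Antennapedia-class and NK homeobox genes, 7 were tested, with 3 higher and 2 lower in eye parts, against the same shares of all genes. The higher ones were ro at 3.09, B-H1 at 2.29 and B-H2 at 2.25, and the lower ones were Dll at -3.73 and lbl at -3.03 (limma adjusted p from 0.00447 to 0.0382).

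**Figure D4:**
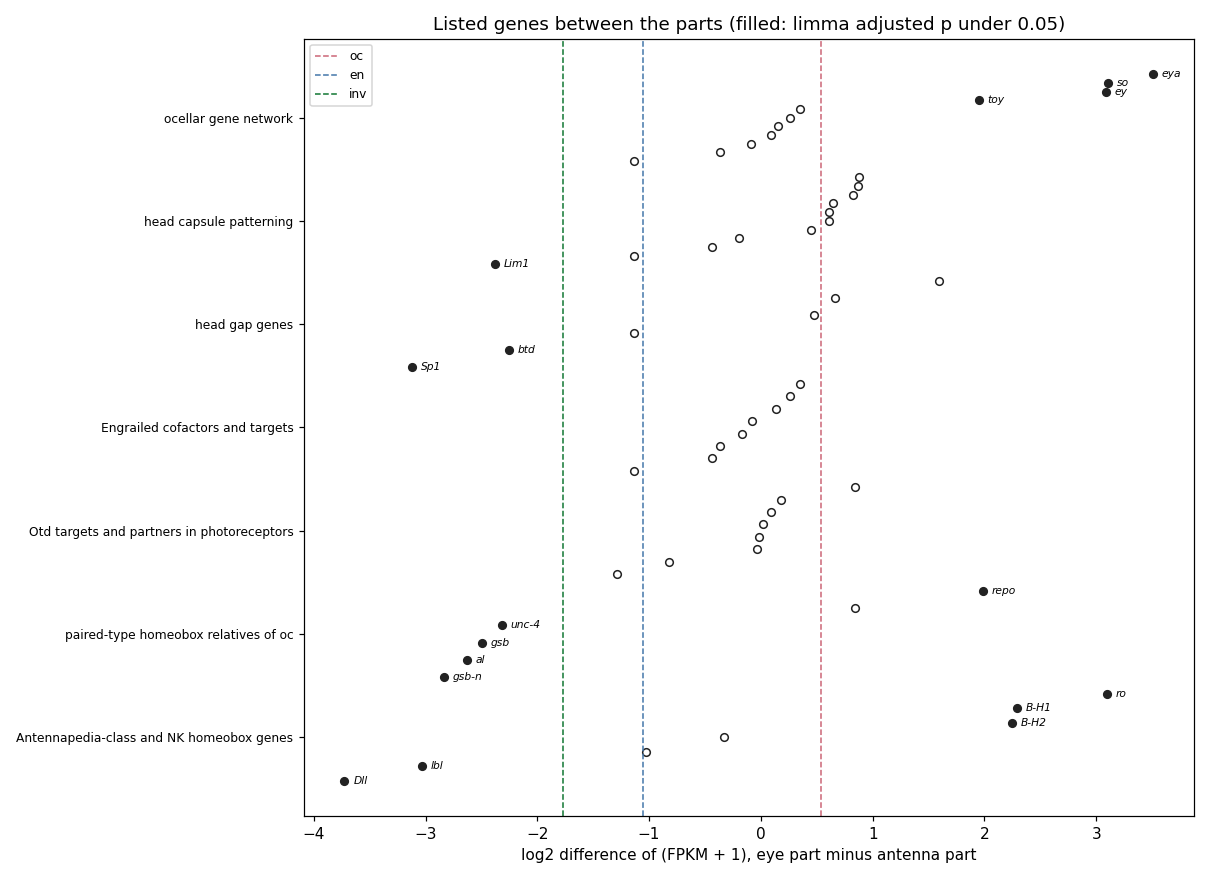
Difference of log2(FPKM + 1) of the eye part minus the antenna part (horizontal) for each tested gene of 7 lists (rows), with dashed lines at the values of oc, en and inv. Filled points with names have a limma adjusted p under 0.05, and vertical offsets within a row carry no value. Between the lines of inv at -1.77 and oc at 0.53, every listed gene is drawn open.

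Between 120 h and 96 h limma called 0 genes in each of these 7 lists (2.11% of all genes were called). Genes with an unadjusted p under 0.05 were 2 of 11 in the ocellar network and 2 of 11 in head capsule patterning. They were 2 of 6 in the head gap list, 1 of 8 in the Engrailed list and 1 of 8 in the photoreceptor list. In the paired-type list there were 2 of 6, in the last list 0 of 7, and over all genes 1655 of 9081. The medians ran from -0.14 in the ocellar network to 0.64 in the paired-type list, against -0.08 over all genes. Closest to the threshold were ey at -0.66 (SE 0.13, limma adjusted p = 0.0821) and slp1 at 0.71 (SE 0.15, limma adjusted p = 0.0899).

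In whole discs against larvae, all 11 ocellar network genes tested were higher, with a median of 3.11 against 0.62 over all genes. They included toy at 5.35, ey at 4.51, eya at 4.45, ci at 3.34 and hh at 2.61. Of head capsule genes 10 of 11 were higher, of the head gap list 4 of 6 and of the Engrailed list 8 of 8. Of the photoreceptor list 4 of 7 were higher and of the paired-type list 3 of 5. These lists had 0 lower, and 35.9% of all genes were higher. The last list had 5 of 7 higher and 1 lower, vnd at -1.58 (limma adjusted p = 0.0202), where 14.2% of all genes were lower. The muscle markers summed to 6138, 1671 and 145 FPKM in discs at 72, 96 and 120 h, against 21898, 13933 and 2473 in larvae. The 5 fat body markers summed to 209, 124 and 37.9 FPKM in discs, against 6330, 40695 and 27952 in larvae. The ring gland markers summed to 799, 959 and 415 FPKM in discs, against 14.7, 70.0 and 97.3 in larvae. What part these cell types have in the differences of oc, en and inv was not tested.

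Genes whose pattern over the 12 libraries was most like that of each selector were ranked by Pearson's r of log2(FPKM + 1) among 6559 genes. The libraries share strain, preparation and, in part, tissue, so r is given as a description. For en, inv was the fourth most similar gene (r = 0.955), and for inv, en ranked 14 (r = 0.955). Within the 9 libraries of disc tissue r between en and inv was 0.913, and each ranked 33 or 34 for the other. Between oc and en r was 0.727 over 12 libraries and 0.28 within disc tissue, and between oc and inv it was 0.687 and 0.0004. The r of oc with either gene was thus far lower once the larvae were left out.

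The 5 genes most like oc were Spn88Ea (a serpin gene), slp2, alpha-Man-IIb (a mannosidase gene), Tsf2 (a transferrin gene) and crok, with r from 0.978 to 0.982. The forkhead gene slp2 held 21.2 and 13.9 FPKM in eye parts of 120 and 96 h, against 13.6 and 10.7 in antenna parts. It held 9.20, 12.5 and 18.6 FPKM in whole discs at 72, 96 and 120 h, against 0.74, 0.94 and 2.30 in larvae. Like oc, slp2 was thus highest in the eye part at 120 h and low in every larva, a likeness that the ranking by r selects for. In the antenna part slp2 was higher at 120 h than at 96 h, where oc was lower (21.6 FPKM against 29.4). By Spearman's rho, or within disc tissue, 0 of these 5 genes were again among the 5 most like.

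Apart from inv, the genes most like en were magu (which encodes a secreted protein), twz, the homeobox gene E5 and CG6454, with r from 0.955 to 0.969. For inv they were twz, the zinc finger homeobox gene zfh2, Lim1, the transmembrane protein gene lbk and the zinc finger gene opa, with r from 0.975 to 0.985. The gene twz stood in both lists and had -2.35 (SE 0.21, limma adjusted p = 0.00969), with 32.1 and 11.2 FPKM in eye parts of 120 and 96 h, against 133.6 and 77.1 in antenna parts. E5 had -1.30 (limma adjusted p = 0.0478), zfh2 -1.78, Lim1 -2.38 and opa -2.03, and these 3 last also passed (limma adjusted p from 0.0122 to 0.0124). Within disc tissue, E5 alone of the 5 named for en and zfh2 alone of those for inv were again among the 5 most like. By Spearman's rho 4 were for en and 2, twz and lbk, for inv. The fits share their libraries with the ranking, so these calls are no separate support.

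**Figure D5:**
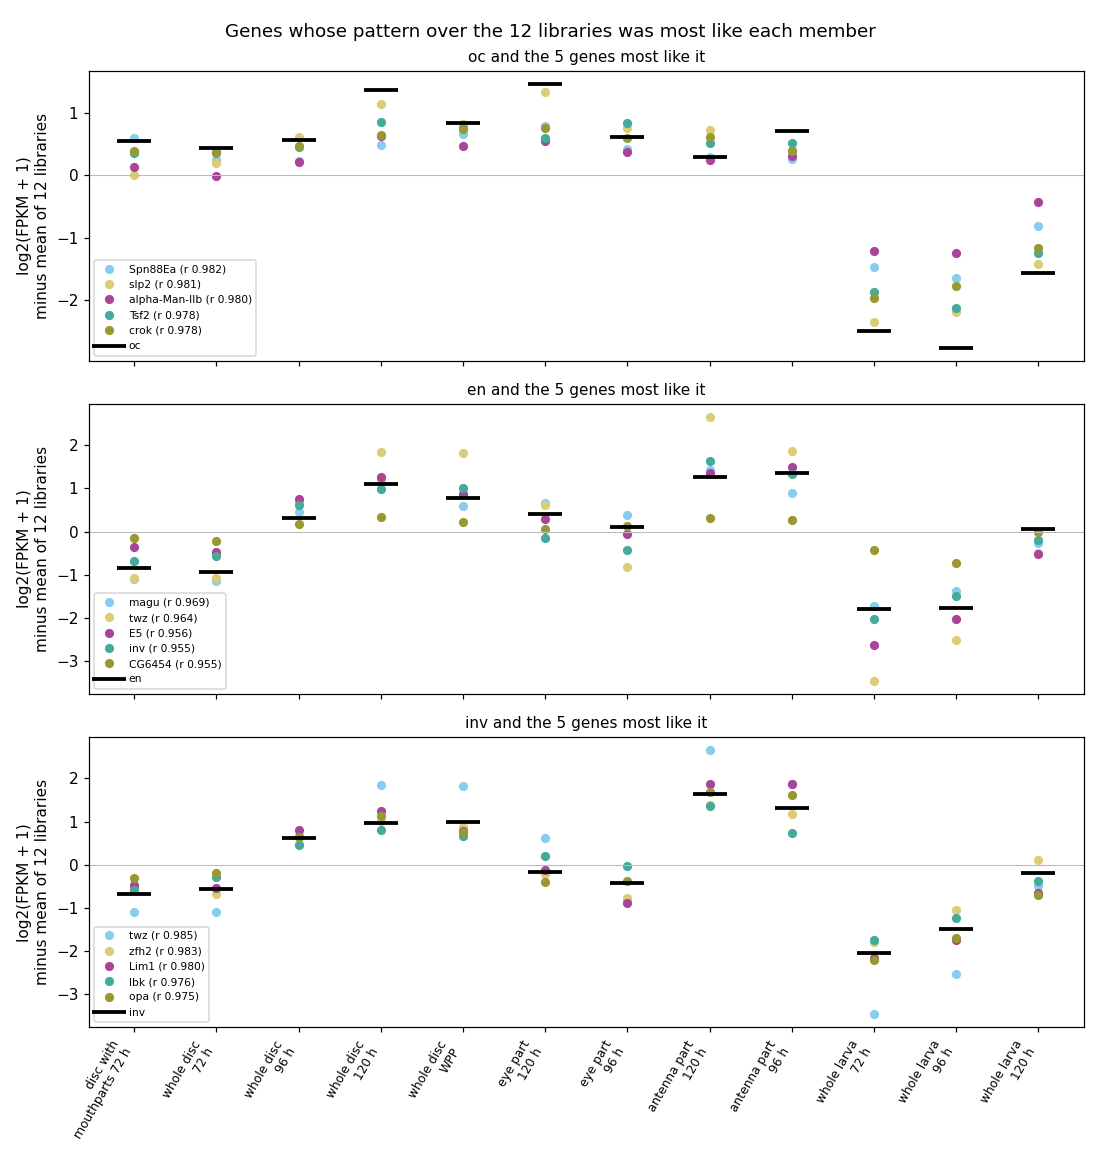
log2(FPKM + 1) minus its mean over the 12 libraries (vertical) in each library (horizontal) for oc, en and inv (black bars) and the 5 genes with the highest Pearson r to each (coloured points, r in the legend). In the panel of oc all points drop in the 3 larva libraries, and in the panels of en and inv most points are high in the antenna parts and low at 72 h and in larvae at 72 and 96 h.

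On the chromosome, the reference annotation BDGP6.54 places inv and en side by side on arm 2R, and oc on X. No annotated gene overlaps any of the 3, apart from a transposable element on the opposite strand of oc. Beyond the pair lie E(Pc) on the side of inv and tou on the side of en, which encode chromatin proteins. Between the parts E(Pc) had 0.07 (limma adjusted p = 0.935) and tou -0.21 (limma adjusted p = 0.754), against -1.77 for inv and -1.06 for en. In the parts tou held 37.2 and 37.4 FPKM in eye parts of 120 and 96 h, against 44.4 and 42.1 in antenna parts. Further out, Prip, a water channel gene, held 9.49 and 9.68 FPKM in the eye part, against 55.5 and 21.4 in the antenna part, at -1.75 (SE 0.51, limma adjusted p = 0.248). The nearest neighbours of oc, Caf1-180 and Rubicon, had -0.14 and 0.04 between the parts. They held 16.4 and 4.31 FPKM in the eye part at 120 h, where oc held 50.03.

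The authors' deposited table also assigns every gene a cluster number, whose making is not described in the labels. It places oc in cluster 2 with 1029 genes, en in cluster 4 with 860 and inv in cluster 5 with 616, so that en and inv are in different clusters.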

How the data were processed

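The authors deposited 1 table of FPKM values, read as such from its values and from the naming of TopHat and Cufflinks and of the build dm3 in the submitters' processing notes, which give no versions. Sources used here do not give the annotation or strand setting. The cluster number per gene, a score in the authors' deposited table, was used only as a description. Numbers of reads are unknown.

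Values were analysed as log2(FPKM + 1) with limma 3.58.1 in R 4.3.3 (lmFit, eBayes with trend and robust). One fit held the 96 and 120 h libraries of eye part, antenna part and whole disc, and another the discs and larvae of 72, 96 and 120 h. Each had terms for tissue and age, 6 libraries, 2 residual degrees of freedom, a minimum of 1 FPKM in 2 libraries or more, and two-sided Benjamini-Hochberg adjustment over all genes tested, with a threshold of 0.05. Log2 differences and the rule of size are on the log2(FPKM + 1) scale, which understates changes of low genes, while values given as times or ratios are of FPKM itself. Weighted means of the parts gave the eye part 61% at 120 h and 62% at 96 h, the weight that gave the lowest median deviation over genes 4-fold or more apart between the parts.

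Genes named are oc, en and inv, listed genes past a fit with at most 4 others per list, the 5 most like genes (longest transcript of at least 1000 nt, at least 5 FPKM in 1 library, range of at least 1), and annotated neighbours. The 3 genes were found by symbol, a rule that uses no measured value, but they and the lists were chosen with earlier results of these data known. Symbols came from the reference tables for 10308 of 10893 identifiers, and Delta and phtm were listed under older symbols. Coordinates are not given because the reference build differs from dm3. Alternatives were pseudocounts of 0.1 and 5, other filters, scalings and eBayes settings, and left-out libraries.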

Additional observations from a re-analysis of the deposited data

Results flagged for a closer look

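The change of oc from 96 to 120 h had opposite signs in different tissues. On the log2(FPKM + 1) scale it was 0.86 in the eye part, 0.81 in the whole disc and 1.20 in the whole larva, against -0.43 in the antenna part. Each was larger than 0.23, the median deviation over genes between libraries of like tissue at 120 h, where oc itself deviated by 0.26. Of genes with at least 5 FPKM in 1 of the libraries, 6.57%, 7.4%, 16.6% and 22.7% changed as far in the same direction, in the same order of tissues. Between the larvae the median gene with at least 5 FPKM rose by 0.61. There the change of oc was 0.80 with median-ratio scaling and 0.61 with a pseudocount of 5. With 1 library per tissue and age, the difference between tissues was not tested.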

How the results depend on the processing

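No paired analysis was possible because every group held 1 library, so replicate numbers pair nothing, and the fits match libraries by age and tissue instead. For the fits of oc, en and inv, 66 of 69 values under alternatives other than left-out single libraries stayed on their side of the threshold, and none changed sign. The exceptions were en between the parts, which passed with eye and antenna parts only (-1.06, limma adjusted p = 0.0457), and en between disc and larva, which missed with median-ratio scaling (0.71) and quantile normalisation (1.11). Leaving out 1 library changed the side of the threshold in 9 of 54 values and the sign in 1, oc between the parts (-0.10 without the antenna part at 120 h). Over left-out libraries the difference between the parts ran from -0.10 to 1.16 for oc, from -1.38 to -0.73 for en and from -1.80 to -1.74 for inv. That of disc against larva ran from 0.96 to 1.57 for en and from 1.32 to 1.79 for inv. Genes called numbered 1 to 413 between the parts (285 with all libraries), 1 to 344 between the ages (192) and 1345 to 4814 between disc and larva (5004). Between the ages it was 125 with a pseudocount of 5, 95 with eBayes without trend and robust, and 355 with eye and antenna parts only. Of 39 differences in single pairs 17 passed the rule of size, and 10 did with a pseudocount of 5. Among them are disc against larva, where 29.5% to 51.7% of genes passed upwards, and larvae at 120 h against 96 h (25.1%). In pairs of disc tissue where a member passed, 4.98% to 7.53% of genes passed in its direction. Of the 5 genes most like each selector, 0 (oc) and 2 (inv) were kept by Spearman's rho, and 0 (oc), 1 (en) and 1 (inv) within disc tissue. The cause of these changes was not tested. A fit with a library left out has 1 residual degree of freedom. For disc against larva, leaving out either library of an age gives the same estimate by design. The same holds between the ages for either library of a tissue. Between the parts, leaving out either whole disc gives the estimate of the parts alone. The 54 values are therefore not all separate checks.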
